A study of Rattus norvegicus with 6 samples.

Results

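Enteric neuron and glia genes were examined in the ileum of obese rats after intestinal bypass or sham surgery. The set holds 9 genes chosen by name for their place in enteric nerve cells or glia, and 8 of them, Stmn2, Prph, Elavl4, Uchl1, Snap25, Vip, Nos1 and S100b, could be matched to a row that carries 1 gene symbol, out of 14506 genes measured in all. Chat was not analysed here. The samples are whole ileum from 6 Zucker fa/fa rats, aged 20 weeks at surgery, whose leptin receptor is defective in both groups. In 3 rats the duodenum was tied off near its start and the cut jejunum joined to it above the tie, so that food bypassed most of the duodenum and the upper jejunum while bile and pancreatic juice joined it further down (DJB). In 3 rats the gut was cut and rejoined in its normal order (sham). Tissue was taken 14 days later, and RNA from each rat was read on its own Affymetrix whole-transcript array. Values are log2 expression levels after RMA, a method that subtracts background, gives all arrays a like distribution and summarises the probes of a row.

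The enteric nervous system lies in the gut wall as ganglia between the muscle layers and under the mucosa, and its fibres reach the villi. Motor neurons that release acetylcholine contract gut muscle, and those that release nitric oxide and vasoactive intestinal peptide (VIP) relax it. VIP also drives secretion by the epithelium, and glial cells that carry S100B surround the neurons. In RNA of whole tissue, fewer cells of a type and less RNA per cell cannot be told apart. 

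The stretch of 150 bases before the transcription start is shown for the 4 measured members in which either of the motifs searched was found. The sequences are from RefSeq on the build GRCr8 and read 5′ to 3′ on the strand of the gene. The set of promoter sequences used here held 7 of the 9 genes. It had no entry for Stmn2 and Snap25, which were therefore not searched. Capitals mark TGACGTC, the core of the cAMP response element, and TATAAA, the TATA box, both searched on either strand. Vip lies on the plus strand at chr1:44470330-44470479, Nos1 on the minus strand at chr12:44371838-44371987, Prph on the plus strand at chr7:132097139-132097288 and Uchl1 on the minus strand at chr14:41849418-41849567.
Vip: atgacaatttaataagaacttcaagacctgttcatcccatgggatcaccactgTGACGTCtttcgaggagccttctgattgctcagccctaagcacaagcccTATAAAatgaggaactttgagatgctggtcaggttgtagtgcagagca
Nos1: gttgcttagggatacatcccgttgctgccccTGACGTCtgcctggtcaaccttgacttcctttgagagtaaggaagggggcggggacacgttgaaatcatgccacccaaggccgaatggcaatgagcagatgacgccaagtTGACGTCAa
Prph: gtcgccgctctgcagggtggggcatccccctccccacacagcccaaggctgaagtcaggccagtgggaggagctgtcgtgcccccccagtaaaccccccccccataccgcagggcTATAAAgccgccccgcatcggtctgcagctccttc
Uchl1: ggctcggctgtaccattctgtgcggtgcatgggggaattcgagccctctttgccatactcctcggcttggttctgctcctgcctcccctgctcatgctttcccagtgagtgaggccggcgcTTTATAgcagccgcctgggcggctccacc

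The genes of both inhibitory transmitters, Vip and Nos1, carried the cAMP response element core. In Vip it began 97 bases before the start, and in Nos1 copies began 119 and 9 bases before it, the nearer of which also reads as a match on the other strand. Among all 33469 promoter windows of this length, 2.23% held the core. The TATA box began 48 bases before the start in Vip and 35 bases before it in Prph, and in Uchl1 it stood on the other strand, 29 to 24 bases before the start. It was present in 8.0% of the windows. The RefSeq gene record reaches upstream of the start used here by 248 bases in Vip, 401 in Prph, 326 in Uchl1 and 84534 in Nos1, so these windows lie within the outer bounds of the genes. A match of letters shows neither that a factor binds there nor that the gene responds to it.

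The transcripts of enteric neurons and glia differed little between bypass and sham rats, by -0.44 for Stmn2, at the low end, to 0.15 for S100b, at the high end, on the log2 scale. None of the 8 members passed the limma test at an adjusted p of 0.05 over all genes, where 0.772% of all genes did (0.393% higher, 0.379% lower). At an unadjusted p under 0.05 there was 1 member, Stmn2, against 14.3% of all genes. An unmoderated linear model, at an adjusted p of 0.05, called 0 members and only 2 of all genes. In 0 of the 8 did the DJB values lie wholly above or below the sham values, as they did in 21.1% of all genes. The means were lower after DJB in 5 members and higher in 3, with a median difference of -0.06, beside 0.05 over all genes tested. Of all 14506 genes, 8956 were higher and 5550 lower. Every one of the 8 intervals of the difference (95%, for each gene alone) lay inside a 2-fold change in either direction. Of these, 4 members, Nos1, Elavl4, Snap25 and S100b, had a mean under 6.11, the median of all rows, and in dim rows a fold change is understated.

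**Figure D1:**
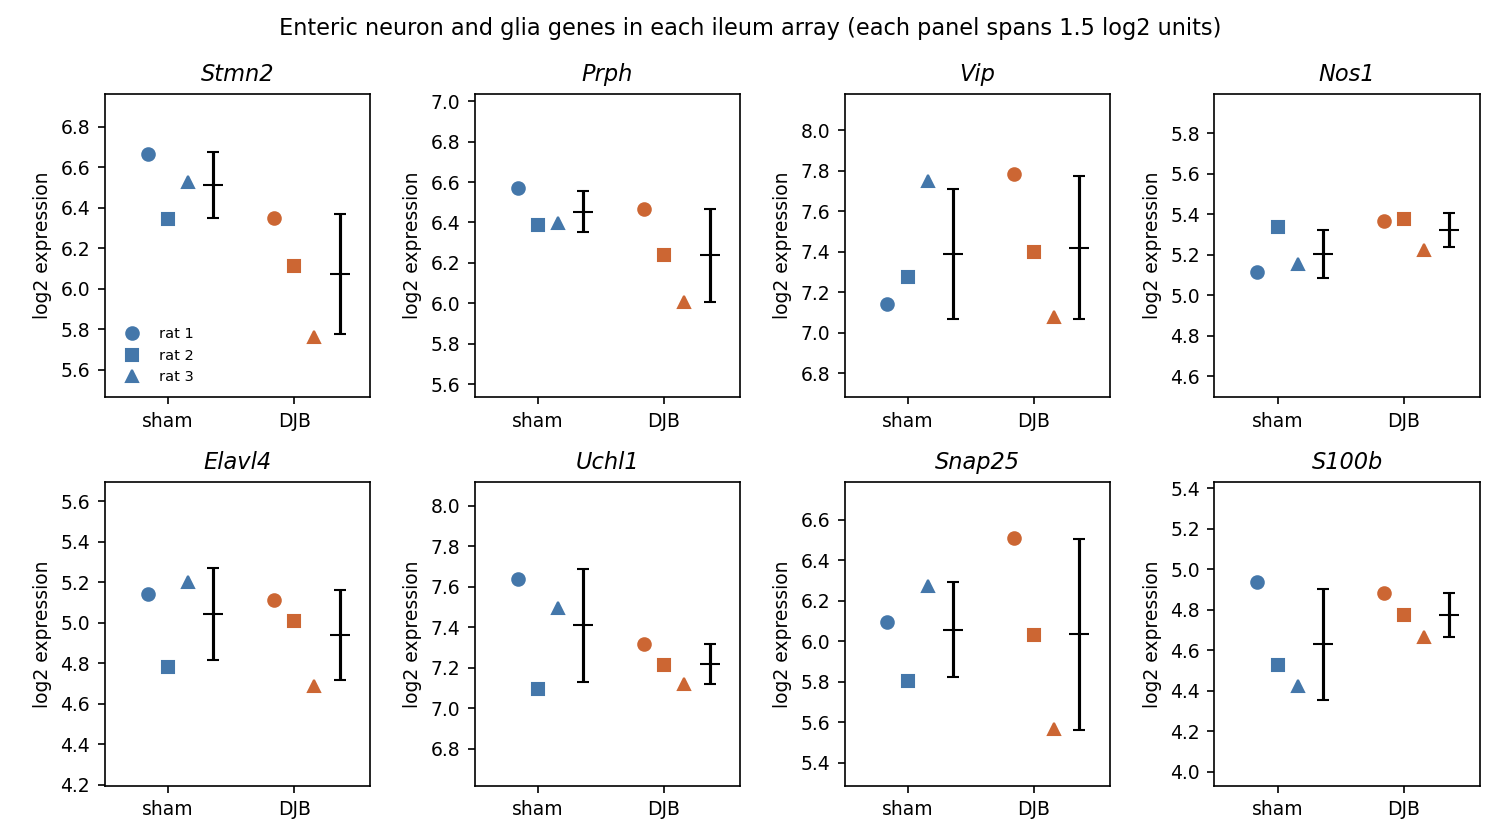
Log2 expression of the 8 genes on each of the 6 arrays, with the mean and SD (n = 3) of each group in black; marker shapes give the rat's number within its group and pair no rats. The groups overlap in all 8 panels, and DJB 3 is the lowest DJB array in each.

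Stmn2 encodes stathmin-2, which regulates microtubules in growing axons. Its levels were 6.67, 6.34 and 6.52 on sham 1 to 3 and 6.35, 6.11 and 5.76 on DJB 1 to 3. The groups overlapped by a single pair of arrays, since DJB 1 lay just above sham 2. The mean changed from 6.51 ± 0.16 (SD, n = 3) to 6.07 ± 0.30 (SD, n = 3), a difference of -0.44 ± 0.16 (SE), or 1.35-fold lower, with an interval from -0.79 to -0.09. It did not pass over all genes (limma adjusted p = 0.25, and 0.184 to 0.502 when any 1 array was left out), and the difference was -0.28 without DJB 3. An exact two-sided permutation test gave p = 0.2, where 3 against 3 arrays cannot give less than 0.1.

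Prph encodes peripherin, an intermediate filament of peripheral neurons. It was measured at 6.57, 6.39 and 6.40 in sham and at 6.47, 6.24 and 6.01 after DJB. The lowest 2 values were DJB arrays, but DJB 1 lay above the other two sham arrays. The difference of -0.21 ± 0.13 had an interval from -0.51 to 0.08, and it was -0.099 without DJB 3 and -0.33 without DJB 1.

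Uchl1 encodes the neuronal ubiquitin hydrolase also known as PGP9.5, a usual stain for gut nerves. Its levels of 7.64, 7.10 and 7.49 in sham spread more widely than the 7.32, 7.22 and 7.12 after DJB. All DJB values lay within the sham range. The difference was -0.19 ± 0.14, and it was -0.08 without sham 1 and -0.35 without sham 2.

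Elavl4 encodes HuD, an RNA-binding protein of neurons. It lay at 5.14, 4.78 and 5.20 in sham and at 5.12, 5.01 and 4.69 after DJB, a difference of -0.11 ± 0.15. Sham 2 and DJB 3 were the low arrays, 1 in each group. All 6 values were under the median of all rows.

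Snap25 encodes a SNARE protein that fuses transmitter vesicles with the nerve terminal and is also made by hormone cells of the gut. Its sham levels of 6.10, 5.81 and 6.27 were enclosed by DJB levels of 6.51, 6.03 and 5.57. DJB rats thus held both the highest and the lowest value, and the means differed by -0.02 ± 0.22. This was the most variable member: its residual SD of 0.37 was larger than that of 97.8% of all genes.

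Vip, the transmitter of relaxing motor neurons and of neurons that drive secretion, had levels of 7.14, 7.28 and 7.75 in sham and 7.78, 7.40 and 7.08 after DJB. Each group spanned nearly the same range. The difference was 0.03 ± 0.20, with an interval from -0.42 to 0.49, and its residual SD of 0.34 was larger than that of 96.5% of genes.

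Nos1 encodes the neuronal nitric oxide synthase. It was measured at 5.12, 5.34 and 5.15 in sham and at 5.37, 5.38 and 5.22 after DJB. The 2 highest arrays were DJB 1 and DJB 2, with sham 2 just under them, and the difference was 0.12 ± 0.10 with an interval from -0.11 to 0.35. Nos1 was the steadiest member, with a residual SD of 0.10, and all 6 values were under the median of all rows.

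S100b, the glial calcium-binding protein, lay at 4.94, 4.53 and 4.42 in sham and at 4.88, 4.78 and 4.67 after DJB. Sham 1 was the highest array and the other two sham arrays the lowest, so that the DJB values fell between them. The difference of 0.15 ± 0.14 was 0.30 without sham 1 and 0.04 without sham 3. This row was dim: its mean of 4.70 was under 4.87, the level that 95% of 203 smell and pheromone receptor genes stayed under on these arrays. The means of Elavl4 (4.99) and Nos1 (5.26) lay a little above that level.

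**Figure D2:**
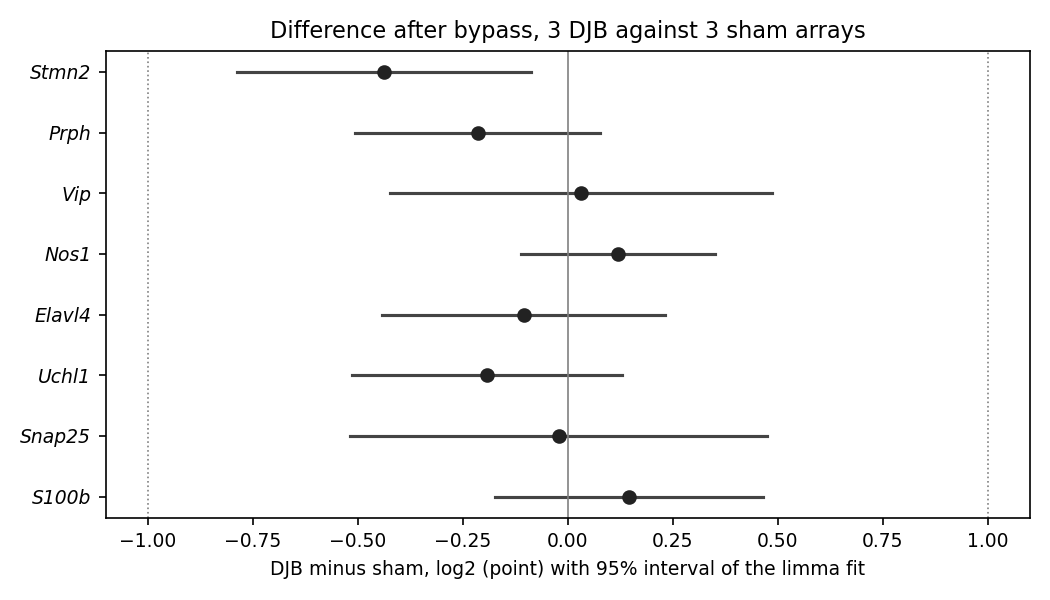
Difference DJB minus sham on the log2 scale (points) with the 95% interval of the limma fit (lines) for each of the 8 genes, 3 arrays per group; dotted lines mark a 2-fold change. All intervals lie inside the dotted lines, and that of Stmn2, from -0.79 to -0.09, is the only one that does not cross 0.

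In each of the 8 members, the gap between the highest and lowest rat of one group was wider than the difference between the group means. This was not counted over all genes. DJB 3 was the lowest of the 3 DJB arrays in 8 of 8 members, where it was the lowest in 43.5% of all genes. In 7 of 8 the DJB arrays ran in the order DJB 1, DJB 2, DJB 3. How many of all genes did so was not counted, but the mean of all genes tested also fell in this order, at 6.87, 6.75 and 6.74. The median of all rows was 6.19 on DJB 1, 6.08 on DJB 2 and 6.10 on DJB 3. Among sham arrays, sham 2 was the lowest in 5 of 8 members, where it was the lowest in 33.0% of all genes. The mean over the 8 members was 6.16, 5.95 and 6.15 in sham and 6.22, 6.02 and 5.76 after DJB. Without DJB 3, the members with a lower mean after DJB numbered 3 in place of 5, and their median difference was 0.09. The 8 of 8 for DJB 3 was the same after another quantile normalisation and after centring each array on its median, where 38.2% and 38.1% of all genes had DJB 3 lowest.

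Smooth muscle, which surrounds the ganglia, varied between rats too. Its 14 measured markers had mean levels of 9.70, 9.23 and 9.56 in sham and 9.80, 9.80 and 9.50 after DJB, and both sham 2 and DJB 3 were the lowest array of their group in 14 of 14. Of the muscle markers 11 were higher and 3 lower after DJB, with a median difference of 0.21, and 0 were called. Myh11, the smooth muscle myosin, differed by 0.01 ± 0.16 (below 0 after both other scalings), desmin, Des, by 0.24 ± 0.18 and the enteric actin gene Actg2 by 0.32 ± 0.15. The largest difference was that of phospholamban, Pln, at 1.03 ± 0.25 (adjusted p = 0.124). It was called without DJB 3 (1.34, limma adjusted p = 0.0154) but not without any other single array (limma adjusted p 0.210 to 0.264). Relative to the muscle mean of the same array, the 8 neuron and glia members differed by -0.64 for Stmn2 to -0.06 for S100b, values given with no test. That all 8 lay below 0 was set by the muscle list. Its mean was 0.205 higher after DJB, more than the highest difference of any member (0.15, S100b).

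Markers of other cells in the tissue are given for the same arrays. Endothelial markers (6 measured, 0 called) had the pattern most like the members' among the marker lists (Pearson r = 0.957 with the members' mean over the 6 arrays, a description), with mean levels of 7.10, 7.02 and 7.14 in sham and 7.28, 7.06 and 6.80 after DJB, and DJB 3 lowest in 5 of 6. Pecam1 differed by -0.04 ± 0.14, Cdh5 by 0.04 ± 0.13, Kdr by -0.06 ± 0.12 and Emcn by -0.18 ± 0.17. Fibroblast markers (9 measured, 0 called) had DJB 3 lowest in 9 of 9, and 6 were higher and 3 lower after DJB. The collagen genes Col1a1, Col1a2 and Col3a1 were higher after DJB by 0.71 ± 0.21, 0.52 ± 0.16 and 0.52 ± 0.16 without passing. Markers of interstitial cells of Cajal, the pacemakers of gut muscle, differed little: Kit by -0.13 ± 0.10, Ano1 by -0.09 ± 0.12 and Etv1 by -0.10 ± 0.15.

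Enteroendocrine cells share Snap25 and Uchl1 with neurons. Of their markers 14 were measured and 0 called, and the list had mean levels of 6.95, 7.14 and 7.39 in sham and 7.31, 7.20 and 6.95 after DJB. Chga differed by -0.01 ± 0.13, Chgb by 0.22 ± 0.19 and Gcg by 0.05 ± 0.14, and the largest difference was that of Gip at -0.49 ± 0.14. Tuft cell markers (6 measured, 0 called) were higher in 1 and lower in 5, and the largest difference was that of Avil at -0.44 ± 0.20, with Dclk1 at -0.24 ± 0.17, Pou2f3 at -0.08 ± 0.18 and Gfi1b at -0.06 ± 0.09. Epithelial markers (11 measured, 0 called) had DJB 3 lowest in 4 of 11, and Vil1 differed by -0.01 ± 0.10, Epcam by 0.21 ± 0.09 and Cdh1 by 0.10 ± 0.10. The part of muscle, vessel, connective tissue or hormone cell content in the members' pattern was not tested. As a check of the tissue, the ileal bile acid binding protein gene Fabp6 was near the top of the scale on all 6 arrays, between 13.44 and 13.67 in sham and between 13.81 and 13.97 after DJB. The ileal bile acid transporter gene Slc10a2 lay at 9.90, 10.54 and 10.75 in sham and at 11.91, 12.46 and 12.02 after DJB. Both ileal markers were thus high on every array, and higher on each DJB array than on any sham array.

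**Figure D3:**
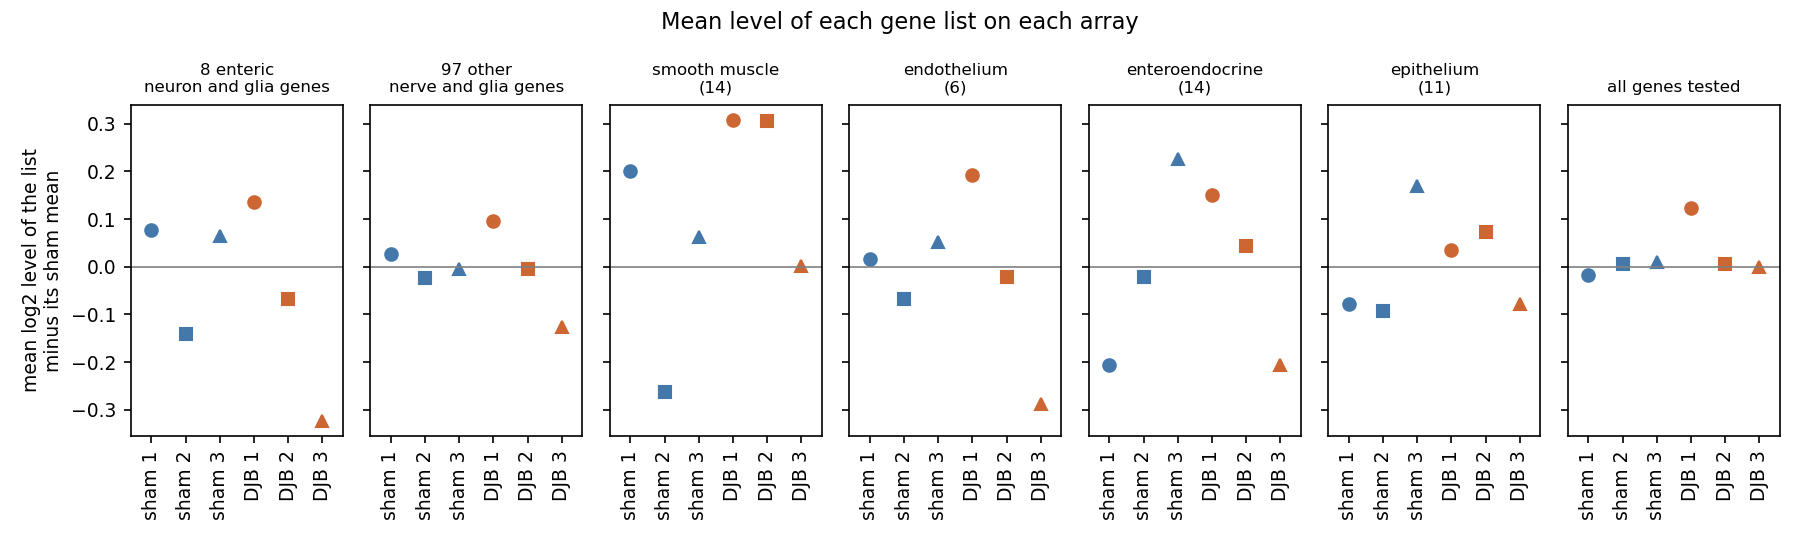
Mean log2 level of each gene list on each array, minus the mean of that list over the 3 sham arrays; blue is sham, orange is DJB, and shapes give the rat's number. The 8 neuron and glia genes run from 6.22 on DJB 1 to 5.76 on DJB 3 before this subtraction, and endothelial markers from 7.28 to 6.80, while the mean of all genes tested is 6.87 on DJB 1, 6.75 on DJB 2 and 6.74 on DJB 3.

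A wider set of 97 measured genes, of 111 listed by their role in nerve and glia, gave 1 call, a fall of Vipr1. Of all genes, 0.379% were called lower. The set is not confined to nerve, since gut epithelium carries Vipr1 and muscle cells also make Cryab. Pmp22 and Erbb3 were brighter than 99.4% and 93.5% of all rows. Which cells gave the signal of each gene was not tested. Of the 97, 46 were higher and 51 lower after DJB, where 8956 and 5550 of all 14506 genes were. Their median difference was -0.01, beside 0.05 over all genes. In 11 the groups did not overlap, a smaller share than the 21.1% of all genes. At an unadjusted p under 0.05 there were 10, again a smaller share than the 14.3% of all genes. DJB 3 was the lowest DJB array in 64 of the 97.

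Vipr1 encodes VPAC1, a receptor for VIP and PACAP that gut epithelium carries. Its levels were 9.14, 9.09 and 9.10 in sham and 8.69, 8.45 and 8.45 after DJB. The sham rats were nearly alike and every DJB rat was lower. The fall was 0.58 ± 0.10, or 1.49-fold (limma adjusted p = 0.0423). The call was kept when DJB 1 was left out (adjusted p = 0.0245) and ended when any other single array was. Its adjusted p was 0.13 to 0.152 on leaving out a sham rat, 0.156 on leaving out DJB 2 and 0.11 on leaving out DJB 3. The difference itself stayed between -0.66 and -0.54 when any 1 array was left out. The 11 epithelial markers had a mean of 12.10 in sham and 12.11 after DJB, and their part in the fall was not tested. Vipr1 was also not called over all rows (adjusted p = 0.0865) or by the unmoderated model (adjusted p = 0.178).

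Other genes on the receiving side of the inhibitory transmitters did not pass. Vipr2, which encodes the other VIP receptor VPAC2, differed by 0.12 ± 0.13. Gucy1a1 and Gucy1b1 encode the subunits of the soluble guanylate cyclase that nitric oxide activates, and they differed by -0.09 ± 0.16 and -0.12 ± 0.11. Prkg1, the protein kinase downstream of it, differed by -0.02 ± 0.12. The difference between the changes of Vipr1 and Vipr2 was not tested.

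Among the 18 inhibitory transmitter, neuropeptide and amine genes, 9 were higher and 9 lower, where 8956 and 5550 of all 14506 genes were. In 5 the groups did not overlap, a count near the share of 21.1% over all genes. Npy, a peptide of sympathetic and enteric neurons, went from 7.35, 7.43 and 7.52 to 8.24, 8.05 and 7.75. All DJB arrays were above all sham arrays, and the difference of 0.58 ± 0.13 did not pass (adjusted p = 0.105). Nmu, which encodes neuromedin U, went the other way, from 8.90, 8.38 and 8.09 to 7.87, 7.66 and 6.85. Every DJB rat was lower, with a difference of -1.0 ± 0.27 (adjusted p = 0.159) that was -0.69 without DJB 3. Calb2, the calcium-binding protein calretinin of many enteric neurons, was lower in every DJB rat by -0.51 ± 0.13 (adjusted p = 0.129). The galanin gene Gal differed by -0.22 ± 0.13 and Adcyap1, which encodes PACAP, by 0.06 ± 0.13.

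**Figure D4:**
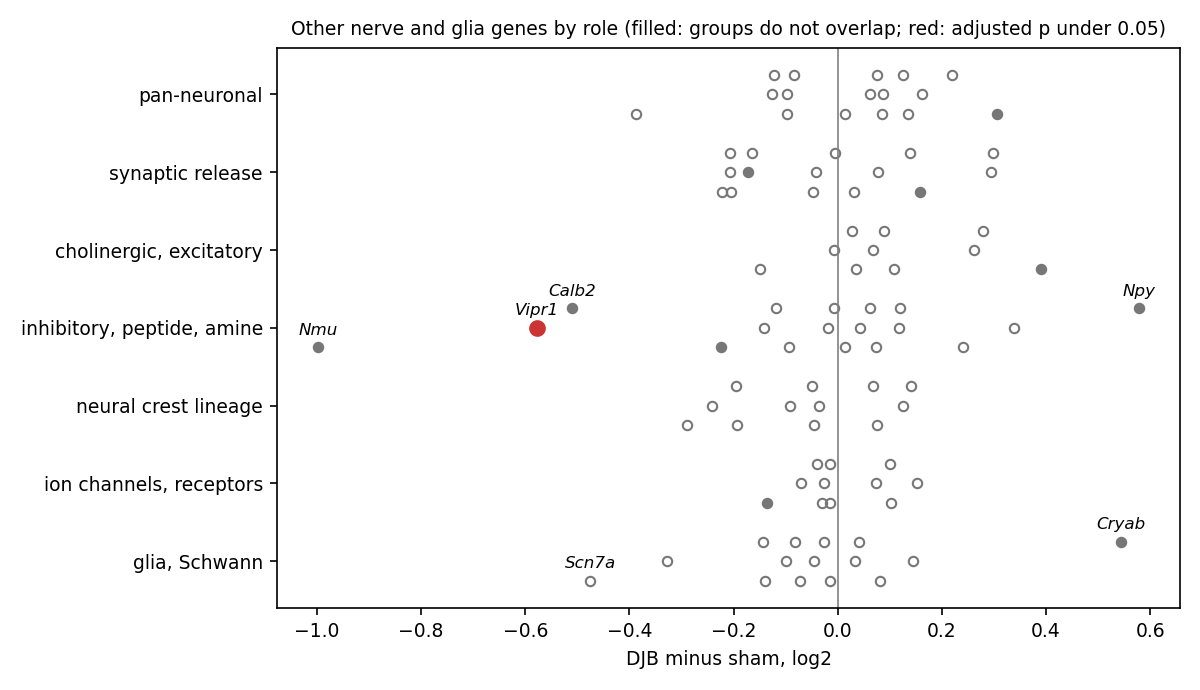
Difference DJB minus sham on the log2 scale for each of 97 nerve and glia genes, by role; filled points are genes whose groups do not overlap, and the red point passed an adjusted p of 0.05. Most points lie near 0, and Vipr1 at -0.58 is the only call. The largest fall is that of Nmu at -1.0 and the largest rise that of Npy at 0.58.

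Cholinergic and excitatory genes were higher in 8 of 10 with 0 called, where 8956 of all 14506 genes were higher. Slc18a3, the vesicular acetylcholine transporter, differed by 0.26 ± 0.14, the choline transporter gene Slc5a7 by -0.01 ± 0.11 and acetylcholinesterase, Ache, by 0.04 ± 0.11. Butyrylcholinesterase, Bche, had the largest difference, 0.39 ± 0.11 (adjusted p = 0.167), and was higher in every DJB rat.

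Synaptic vesicle and release genes (15 of 18 measured, 0 called) were lower in 9, where 5550 of all 14506 genes were lower. The calcium sensor Syt1 differed by -0.21 ± 0.13, synaptophysin, Syp, by -0.04 ± 0.11 and the vesicle SNARE Vamp2 by -0.21 ± 0.13. Syt4 had the largest difference, at 0.30 ± 0.14. Beside the -0.02 of Snap25, none of the release genes moved past the test.

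Pan-neuronal genes (16 of 16 measured, 0 called) were higher in 10, a share near that of all genes (8956 of 14506). Their median difference was 0.07, beside 0.05 over all genes. Neuronal tubulin, Tubb3, differed by -0.10 ± 0.11, the growth cone gene Gap43 by 0.01 ± 0.14 (below 0 after both other scalings) and the light neurofilament gene Nefl by -0.08 ± 0.12. The adhesion molecule gene L1cam differed most, by -0.39 ± 0.15. The -0.44 of Stmn2 was thus below the difference of each of these 16 genes, but whether it differed from theirs was not tested.

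Neural crest lineage genes (12 of 16 measured, 0 called) were lower in 8, where 5550 of all 14506 genes were lower. The GDNF receptor gene Ret differed by -0.20 ± 0.12, its co-receptor genes Gfra1 and Gfra2 by -0.05 ± 0.10 and 0.07 ± 0.11, and Meis2 by -0.29 ± 0.13. Ion channel and serotonin receptor genes (11 of 15 measured, 0 called) stayed within -0.14 and 0.15. There the sodium channel gene Scn3a differed by -0.01 ± 0.14, the potassium channel genes Kcna1 and Kcnma1 by -0.03 ± 0.14 and -0.07 ± 0.11, and the calcium channel gene Cacna2d1 by 0.15 ± 0.22.

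Glial and Schwann cell genes (15 of 18 measured, 0 called) were lower in 10, where 5550 of all 14506 genes were lower. Their median difference was -0.05, beside 0.05 over all genes. Sox10, the transcription factor of enteric glia, had levels of 6.13, 6.02 and 6.18 in sham and 6.08, 6.16 and 6.01 after DJB. The groups lay over each other, with a difference of -0.03 ± 0.10. Gfap, the glial filament gene, differed by 0.08 ± 0.16 and the cadherin gene Cdh19 by -0.33 ± 0.17. Cryab, a small heat shock protein that muscle cells also make, had the largest difference, 0.54 ± 0.15 (adjusted p = 0.155), and was higher in every DJB rat.

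The pattern of the members over the 6 arrays was compared with that of every other gene. Single members followed the mean of the other seven to unequal degrees, with Pearson r of 0.92 for Snap25 and Elavl4, 0.83 for Prph, 0.73 for Stmn2, 0.66 for Uchl1, 0.54 for Vip, 0.18 for S100b and -0.18 for Nos1. The genes nearest to the mean of all 8 members were Stn1 (r = 0.994), Nr1h2 (r = 0.993), Zbtb39 (r = 0.985), Ung (r = 0.983) and Srpx2 (r = 0.979), chosen as the 5 highest of all genes. Without the arrays farthest from the median, DJB 3 and sham 2, these r were between 0.898 and 0.989. The genes had been chosen on the remaining arrays too, so this is no independent check. All r are given as a description over few arrays, with no test. On each array, all genes share the tissue piece of 1 rat and the normalisation.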

How the data were processed

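The authors deposited log2 expression values of 29214 rows by 6 arrays (Affymetrix rat gene whole-transcript arrays, 1 per rat), made with RMA per the submitters' processing notes; version, row annotation build, scan batches and probe intensities are not given in the sources used here. Values were used as deposited. Array medians ran from 6.08 to 6.11, except on DJB 1, where the median was 6.19. Precision is limited by the 3 arrays per group. Of the rows, 15310 carried 1 gene symbol in the platform annotation, 323 several and 13581 none; for genes with several rows the one of highest mean was used. DJB and sham were compared with limma 3.58.1 (lmFit, eBayes) in R 4.3.3 over 14506 genes, two-sided, with Benjamini-Hochberg adjustment and a threshold of 0.05, after a test on simulated data. Differences are DJB minus sham ± SE of that fit. No set test was made.

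The members and lists were chosen with earlier results of these data known. Named were all members, the first 3 measured genes, the called genes and the largest difference of each list, and the 5 genes most like the members. Vipr2, Gucy1a1, Gucy1b1, Prkg1, Calb2, Fabp6 and Slc10a2, and the comparison with smell and pheromone receptor rows, were added after values were seen. Promoter sequences were searched in Python 3.11.15, and figures were drawn with matplotlib 3.10.9.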

Additional observations from a re-analysis of the deposited data

How the results depend on the processing

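None of the 8 members was called under any of the 14 alternatives, which were the replicate block, repeated quantile normalisation, median centring, dim rows left out (which keeps 4 members), eBayes with trend and robust settings, the mean of all rows, all rows tested, an unmoderated model and each array left out. Among the 97 other nerve genes the 1 call became 0 with all rows tested or the unmoderated model, 2 with trend and robust settings (Vipr1 and Npy), and 0 to 1 without any 1 array. The 112 genes called became 50 with the replicate block, 225 without dim rows (fewer genes tested), 313 with trend and robust settings, 2 with the unmoderated model, and 33 to 108 without any 1 array; the cause was not tested. The replicate numbers did not pair the rats (correlations of deviations 0.0053, -0.12 and -0.15), and with the block Nmu was the 1 other nerve gene called, while Vipr1 had an adjusted p of 0.131. Gap43 changed to -0.0088 and -0.015 and Myh11 to -0.014 and -0.025 under quantile normalisation and centring. The median difference of the members was -0.100 and -0.094 under these scalings, and 57 and 54 of the 97 other genes were lower. Signs of small differences turned when 1 array was left out, over the ranges that follow: Vip -0.15 to 0.21, Elavl4 -0.24 to 0.019, Snap25 -0.26 to 0.21, Gap43 -0.12 to 0.14, Syp -0.098 to 0.064, Slc5a7 -0.078 to 0.049, Ache -0.020 to 0.11, Adcyap1 -0.079 to 0.13, Scn3a -0.18 to 0.094, Kcna1 -0.12 to 0.12, Cacna2d1 -0.064 to 0.28, Sox10 -0.073 to 0.0094, Gfap -0.040 to 0.21, Myh11 -0.15 to 0.15, Ano1 -0.16 to 0.015, Etv1 -0.20 to 0.020, Chga -0.093 to 0.12, Gcg -0.051 to 0.16, Pou2f3 -0.28 to 0.047, Vil1 -0.056 to 0.025, Pecam1 -0.20 to 0.044, Cdh5 -0.034 to 0.17 and Kdr -0.17 to 0.0075. Relative to the epithelial mean all 8 members kept their sign, but no sign could have turned. That mean differed by only 0.010, less than the smallest member difference in size (-0.022, Snap25). The balance of Vip and Nos1 against Chat was not run, since Chat was not analysed here. The smallest exact p of a member was 0.2 with either choice of rows. Rows near background limit what can be seen for S100b, Elavl4 and Nos1.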
